A study of Mus musculus with 32 samples.

Results

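The genes described here build and run the lysosome and the autophagy pathway that feeds it, together with the TFEB family of regulators that controls both. The 40 members are a fixed list of gene names, grouped by what their products are known to do. All 40 are among the 24302 genes counted in each library, and all 40 passed the filter on low counts that left 12332 genes for testing. They comprise 7 regulators (Tfeb, Tfe3, Flcn, Fnip1, Fnip2, Rragc and Rragd) and 3 lysosomal membrane proteins (Lamp1, Lamp2 and Mcoln1). The 11 hydrolases are the cathepsins Ctsa, Ctsb, Ctsc, Ctsd, Ctsl and Ctsz and the glycosidases Hexa, Gla, Glb1, Gusb and Neu1. The 5 genes of the V-ATPase are Atp6v0d1, Atp6v1a, Atp6v1b2, Atp6v1h and Atp6ap1. The 14 autophagy genes are Sqstm1, Map1lc3a, Map1lc3b, Gabarap, Gabarapl1, Gabarapl2, Wipi1, Wipi2, Ulk1, Uvrag, Becn1, Atg5, Atg7 and Atg9a. A further 155 genes of the same pathway were listed, of which 149 were tested.

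The lysosome is an acidic compartment in which hydrolases break down proteins, sugars and lipids, and the V-ATPase is the proton pump that acidifies it. In autophagy, a membrane closes around cytoplasm and fuses with the lysosome, so that the cell can reuse the contents. TFEB and TFE3 are transcription factors that bind E-box sites in the promoters of many of these genes. The kinase complex mTORC1, recruited to the lysosome by Rag GTPases, phosphorylates them and holds them in the cytoplasm. Signalling through the T cell receptor activates mTORC1. Macrophages are rich in lysosomal proteases, so cathepsins are read apart from the autophagy genes.

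The cells were CD4+ T cells of C57BL/6J mice, isolated from spleen together with inguinal and axillary lymph nodes, and labelled WT or KO for Nr4a1, the gene of the nuclear receptor Nur77. Poly(A) RNA was sequenced from 8 groups of 4 libraries, 32 in all. In each genotype, 1 group was unstimulated and 3 received anti-CD3 and anti-CD28 antibodies for 12 h. Of the 3 stimulated groups, 1 had no compound, 1 had XCT790, an inverse agonist of the nuclear receptor ERR-alpha, and 1 had a compound coded CompA, each compound at 10 µg/ml. The sources used here do not give how the KO allele was made, any vehicle, or the age and sex of the animals. The protocol text describes stimulation for the cells as a whole, and the groups here follow the label of each sample. The labels name no separate animals behind the 4 libraries, so the p-values measure only the spread between libraries, and that spread may be technical.

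Nr4a1 checked the labels first. Its level, in CPM (counts scaled to a common library size), was 71.6 ± 21.4 (SD, n = 4) in unstimulated WT and 94.1 ± 10.9 in unstimulated KO-labelled cells. After stimulation it was 166.3 ± 32.7 in WT and 332.0 ± 127.9 CPM in KO-labelled cells, higher in the latter by 1.0 on the log2 scale (adjusted p = 0.0015). The counts of this gene therefore do not show the loss that the KO label names, and the groups are called KO-labelled throughout. A gene count checks nothing where a deletion leaves most of the transcript in place. Esrra, the gene of ERR-alpha, was lower with XCT790 by -0.53 ± 0.13 (SE, adjusted p = 0.003) in WT and by -0.61 ± 0.13 (adjusted p = 0.004) in KO-labelled cells.

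Libraries held 16020288 to 23687940 gene counts. The 8 helper T cell markers (Cd3d, Cd3e, Cd3g, Cd4, Cd28, Trat1, Lck and Cd5) summed to group means of 3381.9 to 4302.5 CPM in all 8 groups. The 21 myeloid and dendritic markers did not behave alike. They summed to 2656.1 to 4486.0 CPM in unstimulated WT libraries and to 1011.7 to 2453.2 in unstimulated KO-labelled ones. In the 4 stimulated WT libraries without compound they summed to 565.8, 1763.6, 833.4 and 722.6 CPM, while in the other 5 stimulated groups they lay between 7.66 and 32.5 CPM. Vsig4 was at 0 in every library of those 5 groups and Cd163 was also at 0 with XCT790 in KO-labelled cells, whereas none of the 21 was at 0 in the unstimulated groups or in stimulated WT. Over 72 genes that were nearly lost in the other stimulated groups, the stimulated WT libraries kept a fraction of 0.1601, 0.4657, 0.2198 and 0.2166 of the unstimulated level (replicates 1 to 4). The same fraction was 0.001067 to 0.009041 in the other stimulated libraries. For this reason the counts of members called in comparisons with stimulated WT, and the values of the members they turn on, are also given after that share of the unstimulated WT profile was subtracted. The subtraction assumes that every gene kept the same share. The 72 genes were chosen for their loss in the other stimulated groups, and whether other genes kept that share was not tested. B cell markers stood apart in replicate 2 of the KO-labelled groups, at 837.1 CPM against 112.5 to 185.5 in the other unstimulated ones. Stromal and endothelial markers summed to group means of 199.5 and 190.4 CPM in unstimulated WT and KO-labelled cells, to 67.3 in stimulated WT and to 16.2 to 26.6 in the other stimulated groups. CD8 T cell markers had means of 19.0 to 41.7 CPM and natural killer cell markers of 0.231 to 26.4. Of the 5 erythroid markers, 4 were at 0 in each group, so each sum is the level of 1 gene. It was uneven, at 259.0 CPM in unstimulated WT replicate 1 against 32.0 to 50.3 in the other 3, and at 157.7 in unstimulated KO-labelled replicate 2 against 6.8 to 34.0.

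The promoters are shown first, because the E-box is the sequence through which TFEB and TFE3 act on this pathway. RefSeq promoter windows (GRCm38.p6), from 250 bases before to 50 bases after a start, were matched for 35 members and gave 39 windows. Atp6v1h, Becn1, Ctsb, Map1lc3a and Atp6v1b2 had no matching entry. The core CACGTG, which reads the same on both strands, was in 13 of 39 member windows (33.3%) and in 2349 of all 32851 windows (7.15%). Its extension TCACGTG, searched on both strands and overlapping the core, was in 11 of 39 (28.2%) and in 3.77% of all windows. A longer 10-letter form around the same core, named CLEAR, was also searched. It was in 0 of 39 member windows and in 107 of all 32851 windows (0.326%). At so low a rate, 0 of 39 says nothing particular of the members. The core was found for 5 of 10 hydrolases with a window (Ctsa, Ctsd, Ctsl, Gla and Glb1), for 2 of 3 membrane genes (Lamp1 and Mcoln1), for 2 of 3 V-ATPase genes (Atp6v0d1 and Atp6v1a), for 2 of 7 regulators (Fnip1 and Rragc) and for 2 of 12 autophagy genes (Atg5 and Atg7). A match describes these letters only and shows no binding. The window starts are those of RefSeq and can differ from those of the GENCODE gene ranges given further on. For Ctsd, Ctsl, Atp6v1a and Mcoln1 the stretch shown lies inside that range. The stretches below hold the match in the windows of members whose levels are described, with the core and any TCACGTG extension on either side in capitals. They lie at chr2:164833749-164833772 (plus strand, Ctsa), chr7:142387908-142387937 (minus, Ctsd), chr13:64370739-64370768 (minus, Ctsl), chr8:13159088-13159117 (plus, Lamp1), chr8:3500462-3500491 (plus, Mcoln1), chr16:44139373-44139402 (minus, Atp6v1a), chr11:54438092-54438121 (plus, Fnip1), chr10:44268313-44268338 (plus, Atg5) and chr6:114670952-114670981 (plus, Atg7).
Ctsa: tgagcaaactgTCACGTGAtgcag
Ctsd: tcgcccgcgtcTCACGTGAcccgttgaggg
Ctsl: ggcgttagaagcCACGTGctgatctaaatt
Lamp1: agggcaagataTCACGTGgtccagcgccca
Mcoln1: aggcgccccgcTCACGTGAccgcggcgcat
Atp6v1a: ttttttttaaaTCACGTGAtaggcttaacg
Fnip1: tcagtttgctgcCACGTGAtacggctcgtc
Atg5: cggagcgcttgcCACGTGgtcttggt
Atg7: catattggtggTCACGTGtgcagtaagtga

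**Figure D1:**
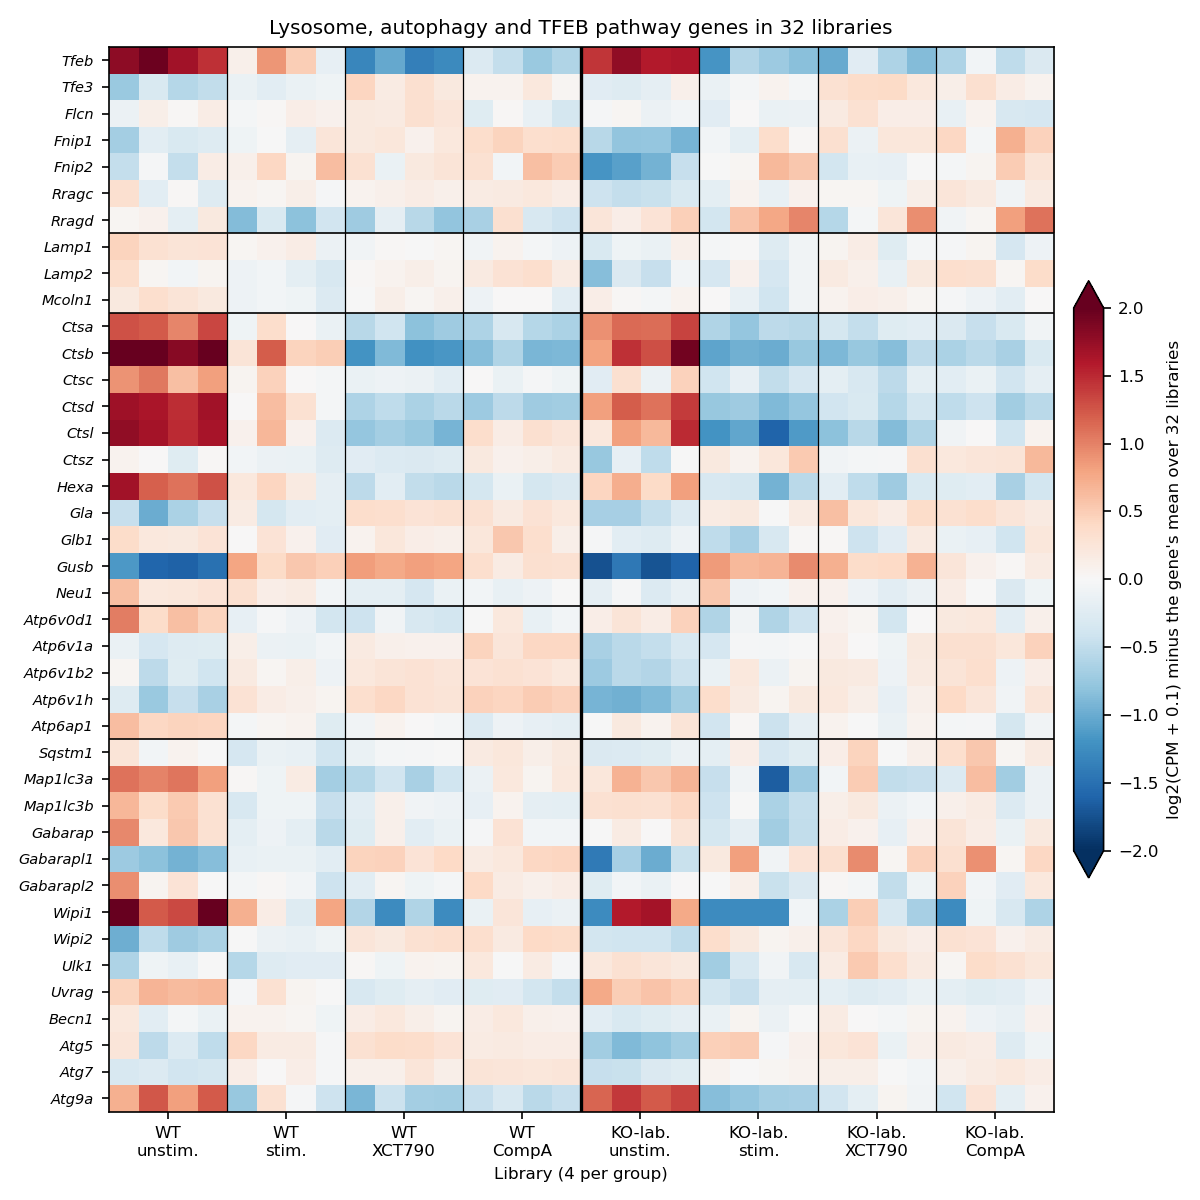
Levels of the 40 members (lines, by role) in the 32 libraries (columns, by group), as log2(CPM + 0.1) minus the mean of the gene over all libraries, with the colour limited to 2 in each direction. Tfeb, Ctsb, Ctsd and Ctsl are high in the unstimulated libraries of both genotypes and intermediate in stimulated WT without compound, while Gusb is low in every unstimulated library.

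Stimulation split the pathway. In WT, 12 members rose and 20 fell, and in KO-labelled cells 15 rose and 17 fell (edgeR quasi-likelihood test, adjusted p under 0.05). Of all genes tested, 73.3% were called in WT (34.5% higher, 38.8% lower) and 81.7% in KO-labelled cells (39.3% higher, 42.4% lower), so a count of 32 of 40 (80.0%) is near the background and says nothing particular of the pathway. The median log2 change of the members was -0.28 in WT, against -0.11 over all genes, and -0.02 in KO-labelled cells, against -0.07. Both genotypes shared 11 members that rose (27.5%) and 16 that fell (40%), against 32% and 34.8% of all genes. With the unstimulated share subtracted from stimulated WT, 12 rose and 22 fell there, against 36.8% and 43.7% of all genes. In bulk samples, fewer cells of a type and less RNA per cell cannot be told apart. The balance of directions moved with the scaling: upper-quartile factors, which set the median of all genes to -0.33 in each genotype, gave 5 higher and 27 lower in WT and 11 higher and 20 lower in KO-labelled cells. Library totals gave 9 higher and 23 lower in each genotype, with the median of all genes at -0.19 and -0.4. Of all genes, library totals called 31.8% higher and 42.0% lower in WT and 30.8% and 51.4% in KO-labelled cells. Upper-quartile factors called 3396 higher and 5934 lower of 12332 genes in WT and 4022 and 6083 in KO-labelled cells. Under all 3 other scalings, 25 members kept their call and direction in WT (5 higher, 20 lower) and 26 in KO-labelled cells (9 higher, 17 lower).

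Among the regulators, Tfeb fell in both genotypes. Tfeb (chr17:47737030-47792419, GRCm38) was at 35.9, 40.5, 33.2 and 28.5 CPM in the unstimulated WT libraries and at 11.1, 19.0, 14.5 and 9.13 CPM after stimulation. The KO-labelled libraries went from 27.8, 35.6, 31.0 and 31.8 to 4.51, 6.79, 6.15 and 5.71 CPM. In each genotype every unstimulated library was above every stimulated one. Stimulated WT replicate 2, with the largest unstimulated share as estimated from the 72 genes, was the highest of the stimulated libraries. The change was -1.36 ± 0.18 in WT (2.57-fold lower, adjusted p = 1.6e-07) and -2.45 ± 0.19 in KO-labelled cells (5.45-fold lower, adjusted p = 1.9e-12). After subtraction of the unstimulated share the WT change was -2.77.

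The other MiT/TFE factors did not follow 1 pattern. Tfe3 (chrX:7762560-7775202), the closest partner of TFEB in this pathway, rose in WT from 27.8, 37.5, 31.1 and 33.0 to 42.1, 40.0, 42.1 and 43.6 CPM, by 0.37 ± 0.09 (adjusted p = 0.00047). The WT groups did not overlap. In KO-labelled cells Tfe3 was 42.3 ± 5.1 before and 45.1 ± 2.53 CPM after (log2 change 0.09, adjusted p = 0.32). Mitf, known from melanocytes and myeloid cells, fell in both, with changes of -1.86 in WT (adjusted p = 3.3e-06) and -3.57 in KO-labelled cells (adjusted p = 3.8e-10). Tfec, known from macrophages, did so too, with -1.85 (adjusted p = 0.00016) and -4.87 (adjusted p = 1.2e-08). Both were low throughout, with Mitf at 5.54 and Tfec at 6.0 CPM in unstimulated WT, and both were lower in libraries in which the myeloid markers were lower, whose part in these values was not tested.

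The folliculin complex acts on the Rag GTPases that recruit mTORC1, and its FNIP partners rose while folliculin itself did not pass the test. Fnip2 (chr3:79455974-79567796) was at 4.71, 6.45, 4.67 and 7.3 CPM in unstimulated WT and at 7.08, 8.74, 6.78 and 10.1 after stimulation. The WT groups overlapped, and the rise of 0.49 ± 0.19 (adjusted p = 0.025) lost its call without any of 3 libraries, reaching 0.35 (adjusted p = 0.13) without unstimulated WT replicate 3. In KO-labelled cells Fnip2 went from 2.85, 3.03, 3.34 and 4.75 to 6.49, 6.73, 10.3 and 9.59 CPM, without overlap, a rise of 1.25 ± 0.2 (2.37-fold, adjusted p = 1.7e-06). Fnip1 rose by 0.35 in WT (adjusted p = 0.019, and 0.27 with adjusted p = 0.087 without stimulated WT replicate 4) and by 0.8 in KO-labelled cells (adjusted p = 3.7e-06). Flcn moved by 0.0 and -0.07 (adjusted p = 0.99 and 0.43). Rragc, a Rag GTPase, rose in KO-labelled cells by 0.36 (adjusted p = 0.00077) and was at 106.0 and 110.5 CPM in WT before and after. Rragd, its paralog, did not pass the test in either genotype (adjusted p = 0.058 and 0.34).

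The lysosomal membrane genes moved little. Mcoln1 (chr8:3500457-3515232), the lysosomal calcium channel TRPML1, was at 15.2, 16.8, 15.8 and 15.2 CPM in unstimulated WT and at 12.4, 12.7, 12.5 and 10.9 after stimulation. Every unstimulated library was higher, and the gene fell by 0.38 ± 0.09 (adjusted p = 0.00032). Its KO-labelled libraries went from 14.6, 13.5, 12.9 and 13.9 to 13.4, 12.0, 10.0 and 12.6 CPM. These groups overlapped, and the fall of 0.19 ± 0.09 (adjusted p = 0.04) lost its call without any of 5 libraries, reaching -0.16 (adjusted p = 0.12) without unstimulated replicate 1. Lamp1 and Lamp2, the main glycoproteins of the lysosomal membrane, fell in WT, with changes of -0.28 (adjusted p = 0.0065) and -0.27 (adjusted p = 0.049). Both calls were lost without unstimulated WT replicate 1, at -0.15 (adjusted p = 0.1) and -0.09 (adjusted p = 0.48). In KO-labelled cells Lamp1 moved by 0.0 and Lamp2 by 0.23 (adjusted p = 1.0 and 0.083).

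The hydrolases moved in opposite directions. Gusb (chr5:129989011-130003049), beta-glucuronidase, was at 50.7, 37.4, 36.9 and 40.0 CPM in unstimulated WT and at 194.9, 147.1, 164.8 and 157.6 after stimulation. KO-labelled libraries went from 33.6, 41.7, 33.9 and 37.0 to 204.6, 176.6, 180.1 and 216.9 CPM. All stimulated libraries were far above all unstimulated ones, and Gusb rose by 2.01 ± 0.11 in WT (4.03-fold, adjusted p = 1.1e-15) and by 2.41 ± 0.11 with the KO label (5.32-fold, adjusted p = 1.1e-17).

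Ctsb (chr14:63122462-63145923), the cysteine protease cathepsin B, fell most among the cathepsins. It was at 1617.5, 1876.2, 1279.6 and 1912.4 CPM in unstimulated WT and at 433.3, 841.2, 491.2 and 507.4 after stimulation. In KO-labelled cells it went from 634.9, 994.1, 885.7 and 1378.6 to 175.1, 186.9, 182.7 and 214.2 CPM. Neither pair of groups overlapped, and stimulated WT replicate 2 was again the highest of the stimulated libraries. The change of Ctsb was -1.56 ± 0.19 in WT (2.94-fold lower, adjusted p = 2.2e-08), and with KO-labelled cells -2.36 ± 0.19 (5.13-fold lower, adjusted p = 4.1e-12).

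Ctsd, the aspartyl protease cathepsin D, Ctsl, the cysteine protease cathepsin L, Ctsa, a serine carboxypeptidase, and Hexa, a hexosaminidase subunit, fell in both genotypes. Their changes were -1.37, -1.47, -1.16 and -1.15 in WT and -1.93, -2.12, -1.75 and -1.12 in KO-labelled cells. Ctsc, which activates granule proteases, fell as well (-0.72 and -0.48). Gla, alpha-galactosidase, rose by 0.49 (adjusted p = 0.00093) in WT and 0.65 (adjusted p = 1.9e-05) in KO-labelled cells. Ctsz, a carboxypeptidase, rose in KO-labelled cells by 0.59 (adjusted p = 8.5e-05), and was at -0.11 in WT (adjusted p = 0.42). Glb1, beta-galactosidase, passed the test in neither genotype (-0.21 and -0.19). Neu1, a sialidase, was at -0.19 in WT (adjusted p = 0.13) and rose by 0.3 in KO-labelled cells (adjusted p = 0.019), a direction that turned to -0.04 with library totals.

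The myeloid and dendritic markers fell with these proteases: the sum of all 21 had a mean of 3352.0 CPM in unstimulated and 971.3 in stimulated WT, and of 1658.1 and 20.7 in KO-labelled cells. Their part in the falls of Ctsb, Ctsd, Ctsl, Ctsa and Hexa was not tested. After subtraction of the unstimulated share, the WT changes were -3.74 for Ctsb, -2.89 for Ctsd, -3.26 for Ctsl and 2.39 for Gusb.

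The V-ATPase genes split between the subunits. Atp6v0d1 (chr8:105524465-105566047), of the membrane sector, was at 120.9, 76.5, 89.8 and 81.1 CPM in unstimulated WT and at 53.1, 58.0, 55.2 and 46.0 after stimulation. In KO-labelled cells it went from 64.9, 70.8, 65.5 and 81.3 to 38.9, 56.6, 39.0 and 44.2 CPM. The groups did not overlap in either genotype, and the changes were -0.79 ± 0.14 (adjusted p = 1.2e-05) and -0.66 (adjusted p = 8.9e-05). Atp6v1h (chr1:5070018-5162529), a regulatory subunit of the cytosolic sector, rose from 101.7, 72.8, 88.8 and 77.6 to 148.7, 135.0, 131.4 and 127.6 CPM in WT. In KO-labelled cells it went from 64.4, 62.4, 66.0 and 75.5 to 155.4, 138.1, 126.7 and 139.2 CPM. Every stimulated library was above every unstimulated one, and the rises were 1.59-fold in WT (0.67 ± 0.1, adjusted p = 9.8e-07) and 2.08-fold in KO-labelled cells (1.06 ± 0.1, adjusted p = 1.1e-10). The catalytic-sector genes Atp6v1a and Atp6v1b2 rose by 0.2 and 0.33 in WT and by 0.4 and 0.58 in KO-labelled cells. In WT both calls were lost without unstimulated WT replicate 2, at 0.12 (adjusted p = 0.17) and 0.2 (adjusted p = 0.067), and Atp6v1a was at -0.02 in WT with upper-quartile factors. Atp6ap1, an accessory protein of the pump, fell, at -0.52 (adjusted p = 1.6e-05) and -0.36 (adjusted p = 0.00075).

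The autophagy genes also moved both ways, 4 higher and 8 lower in WT and 5 higher and 7 lower in KO-labelled cells. Atg9a (chr1:75180860-75192196), the membrane protein of the vesicles that seed autophagosomes, was at 14.8, 21.5, 16.0 and 21.2 CPM in unstimulated WT and at 5.27, 11.1, 8.88 and 6.72 after stimulation. With the KO label it went from 20.2, 24.1, 21.2 and 23.2 to 4.93, 5.25, 5.6 and 5.62 CPM. The groups did not overlap, and Atg9a changed by -1.2 ± 0.17 (2.3-fold lower, adjusted p = 4.4e-07) and -2.05 ± 0.17 (4.14-fold lower, adjusted p = 1.3e-11). After subtraction the WT change was -2.26.

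Gabarapl1 (chr6:129533160-129542346), which is joined to the autophagosome membrane, rose. It went from 19.2, 17.9, 16.5 and 17.5 to 28.7, 28.9, 29.0 and 27.3 CPM in WT and from 11.8, 20, 15.8 and 23.3 to 36.2, 56.1, 30.3 and 38.3 CPM in KO-labelled cells. Neither pair of groups overlapped, and it rose 1.6-fold (0.68 ± 0.19 on the log2 scale, adjusted p = 0.0027) in WT but 2.26-fold (adjusted p = 2.8e-06) in KO-labelled cells. Gabarap, Map1lc3a and Map1lc3b of the same family fell, at -0.77, -1.13 and -0.7 in WT and -0.53, -1.21 and -0.71 in KO-labelled cells. Gabarapl2 fell by 0.47 in WT (adjusted p = 0.014), a call lost without unstimulated WT replicate 1 (-0.13, adjusted p = 0.4), and was at -0.04 in KO-labelled cells (adjusted p = 0.82).

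Atg5 (chr10:44268358-44364291), part of the enzyme that joins these proteins to the membrane, was at 51.0, 45.0, 47.2 and 51.2 CPM in unstimulated and at 115.1, 117.9, 81.5 and 88.1 in stimulated KO-labelled cells. Without overlap, it rose by 1.05 ± 0.14 (2.07-fold, adjusted p = 7.6e-08). In WT the unstimulated values of 98.2, 57.7, 68.7 and 58.6 CPM overlapped with the stimulated ones, and the rise of 0.42 (adjusted p = 0.0082) was lost without unstimulated replicate 2 (0.28, adjusted p = 0.074). Atg7, which activates the same conjugation, rose by 0.39 and 0.41, and Wipi2, which marks the forming membrane, by 0.61 and 0.6. Uvrag, a partner of the lipid kinase that starts the membrane, fell (-0.52 and -0.87).

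Ulk1 (chr5:110784488-110810097), the kinase that starts autophagy, was at 31.0, 33.0, 31.8 and 30.7 CPM in unstimulated and at 16.5, 21.5, 25.5 and 21.4 in stimulated KO-labelled cells. Without overlap, it fell by 0.58 ± 0.12 (1.49-fold, adjusted p = 8.2e-05), while in WT it was 23.4 ± 4.1 and 21.7 ± 2.35 CPM (log2 change -0.12, adjusted p = 0.39). Sqstm1, the receptor p62 that delivers cargo, fell by 0.32 in WT (adjusted p = 0.0084) but lost the call without unstimulated WT replicate 1 (-0.16, adjusted p = 0.15), and was at 0.08 in KO-labelled cells (adjusted p = 0.5). Becn1, of the lipid kinase complex, rose in KO-labelled cells by 0.19 (adjusted p = 0.024), but was at -0.07 with upper-quartile factors and at -0.14 with library totals. Wipi1 was near 0, at 1.15, 0.457, 0.5 and 0.876 CPM in unstimulated WT and 0.293, 0.165, 0.0998 and 0.315 after stimulation, and at 0.0, 0.614, 0.66 and 0.305 CPM before and 0.0, 0.0, 0.0 and 0.131 after in KO-labelled cells. It was called lower in both genotypes, but its fitted change depends on the prior count and is not given.

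**Figure D2:**
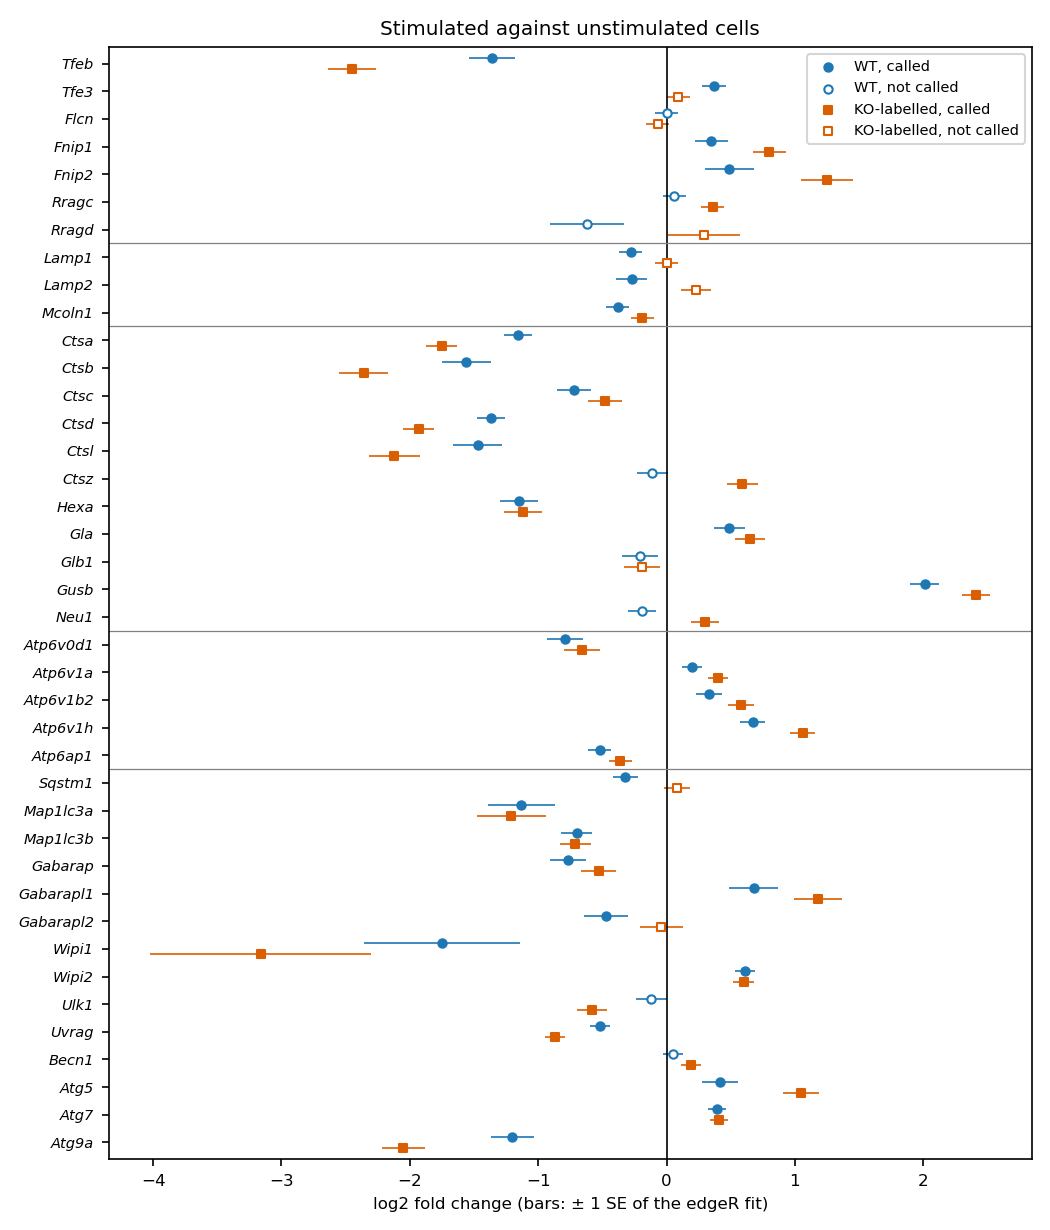
Log2 change on stimulation of each of the 40 members (lines, by role) in WT and in KO-labelled cells, with bars of 1 standard error on each side. Tfeb, Ctsb, Ctsd, Ctsl and Atg9a lie to the left in both genotypes and further left in KO-labelled cells, while Gusb lies furthest to the right, at 2.01 and 2.41.

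Of the 149 further genes tested, 20 rose and 94 fell in WT, where 34.5% of all genes rose and 38.8% fell. In KO-labelled cells 33 rose and 94 fell, against 39.3% and 42.4% of all genes. With the unstimulated share subtracted, 23 rose and 99 fell in WT, against 36.8% and 43.7% of all genes. The summed myeloid and dendritic markers fell beside them, from 3352.0 to 971.3 CPM in WT and from 1658.1 to 20.7 in KO-labelled cells, and their part in these counts was not tested. The further hydrolases accounted for 32 falls and 0 rises of 35 in WT and for 30 falls and 2 rises in KO-labelled cells, with median log2 changes of -1.2 and -1.59. Lgmn, the asparaginyl protease legumain, fell by 1.87 in WT and fell by 3.75 in KO-labelled cells, from 119.0 to 8.9 CPM. M6pr, the mannose phosphate receptor that sorts hydrolases to the lysosome, rose by 0.94 in WT (280.8 to 537.7 CPM) and by 1.36 in KO-labelled cells (233.7 to 599.7 CPM). Rraga, a Rag GTPase, rose in KO-labelled cells by 1.31 (adjusted p = 3.5e-13), from 48.8 to 121.0 CPM, and Zkscan3, a zinc finger repressor of autophagy genes, fell by 1.78, from 38.2 to 11.2 CPM. Vmp1, which acts in the forming autophagosome, rose by 0.85 and 1.59, while Tecpr1, which acts in its fusion with the lysosome, fell (-1.51 and -3.14). The V-ATPase subunit Atp6v0b rose by 1.5 in KO-labelled cells, from 43.2 to 122.1 CPM, and Atp6v1d fell by 1.07.

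The size of these changes differed between the genotypes for 15 of the 40 members by a test of the difference itself (8 more positive and 7 more negative in KO-labelled cells), against 33.7% of all genes (17.2% and 16.5%). Tfeb fell further in KO-labelled cells by -1.09, Ctsb by -0.8, Atg9a by -0.84 and Ctsd by -0.55. Fnip2 differed by 0.75, Ctsz by 0.7 and Atg5 by 0.63. Each of these numbers uses stimulated WT, and after subtraction of its unstimulated share 7 members were more positive and 1 more negative, against 4.88% and 2.48% of all genes. Tfeb then differed by 0.3, Ctsb by 1.36, Ctsd by 0.93 and Atg9a by 0.18, all with the opposite sign. With library totals, 0 members were more positive and 9 more negative, against 7.16% and 25.3% of all genes. The count was 9 without unstimulated WT replicate 1, without stimulated WT replicate 2 or without unstimulated KO-labelled replicate 3, and Atg5 was at 0.39 (adjusted p = 0.073) without the first of these and Fnip2 at 0.62 (adjusted p = 0.088) without stimulated KO-labelled replicate 3. Ctsb was at -0.56 (adjusted p = 0.07) without stimulated WT replicate 2.

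The effect of the compounds was read first in KO-labelled cells, where the myeloid markers were between 14.3 and 32.5 CPM in all 12 stimulated libraries. XCT790 raised 8 of the 40 members there and lowered none, against 11.3% of all genes called (6.2% higher and 5.07% lower). At an unadjusted p under 0.05, 14 were higher and 2 lower, and DESeq2 called 8 higher and 1 lower. These fits did not pair the libraries. With the library run (the set of consecutive library numbers) as a block, 11 were higher and 2 lower, against 1284 and 1504 of 12040 genes. CompA raised 10 and lowered 1, against 19.3% of all genes (10.2% higher and 9.11% lower). The median log2 change of the 40 was 0.17 with each compound, against 0.02 and 0.03 over all genes. Most of the XCT790 calls lay near the threshold: 2 of the 8, Tfe3 and Ulk1, were called whichever 1 library was left out. The count was 3 without KO-labelled XCT790 replicate 1 or stimulated replicate 1. It was 4 without XCT790 replicate 2 or stimulated replicate 3 or 4. Where only the 2 groups were fitted it was 0, but that fit also called only 139 higher and 119 lower of 11057 genes. With CompA, 7 of 11 calls held with any 1 library left out, and the count was 7 without stimulated replicate 1. It was also 7 where only the groups compared were fitted, a fit that called 408 higher and 452 lower of 11011 genes.

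Autophagy genes made up 5 of the 8 rises with XCT790 and 5 of the 10 with CompA. Ulk1 was at 16.5, 21.5, 25.5 and 21.4 CPM in stimulated KO-labelled cells, at 30.2, 38.7, 33.8 and 30.4 with XCT790 and at 27.5, 34.5, 33.3 and 31.3 with CompA. Every library with a compound was above every library without, and Ulk1 rose by 0.65 ± 0.12 (1.57-fold, adjusted p = 0.0011) and by 0.58 ± 0.12 (1.49-fold, adjusted p = 0.0013). The unstimulated level was 31.7 ± 1.03 CPM.

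Atg9a was at 4.93, 5.25, 5.6 and 5.62 CPM without compound, at 6.89, 7.87, 9.31 and 8.54 with XCT790 and at 6.8, 10.9, 7.87 and 9.57 with CompA. Neither compound group overlapped with the libraries without compound, and it rose by 0.61 ± 0.17 (1.52-fold, adjusted p = 0.024) and by 0.71 ± 0.17 (1.64-fold, adjusted p = 0.0048). The XCT790 call was lost without any of 3 libraries, reaching 0.52 (adjusted p = 0.096) without XCT790 replicate 3. Both levels stayed far below the 22.2 ± 1.77 CPM of unstimulated cells.

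Gabarap (chr11:69991143-69994951) was at 158.6, 179.2, 125.0 and 143.6 CPM without compound, at 225.0, 215.5, 181.8 and 216.2 with XCT790 and at 241.2, 225.3, 185.0 and 232.0 with CompA. No libraries overlapped, and it rose by 0.47 ± 0.14 (1.38-fold, adjusted p = 0.025) and by 0.54 ± 0.14 (1.46-fold, adjusted p = 0.0056). Without XCT790 replicate 1 the first value was 0.41 (adjusted p = 0.072). Sqstm1 (chr11:50199366-50210827) was at 254.4, 320.6, 231.3 and 248.9 CPM without compound, at 320.2, 400.8, 290.1 and 315.2 with XCT790 and at 368.1, 423.4, 301.9 and 330.4 with CompA. Replicate 2 was the highest in each condition, so the groups overlapped. Within the library runs, Sqstm1 was higher in 4 of 4 with each compound. The unpaired rises were 0.33 (adjusted p = 0.038) and 0.43 (adjusted p = 0.0042). The first was 0.23 (adjusted p = 0.15) without XCT790 replicate 2. Map1lc3b rose by 0.41 (adjusted p = 0.026) and 0.35 (adjusted p = 0.039). Both calls were lost without any of 5 libraries, at 0.37 (adjusted p = 0.082) without stimulated replicate 1 and at 0.28 (adjusted p = 0.12) without CompA replicate 1.

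Among the regulators, XCT790 raised Tfe3 from 42.2, 45.1, 48.4 and 44.9 to 57.0, 59.6, 60.7 and 53.7 CPM, without overlap, by 0.36 ± 0.09 (1.28-fold, adjusted p = 0.0093). Flcn (chr11:59791408-59810016) went from 36.7, 43.4, 39.3 and 39.8 to 48.8, 52.9, 47.0 and 47.2 CPM, also without overlap, by 0.3 ± 0.09 (1.23-fold, adjusted p = 0.025). Without stimulated replicate 1 it was 0.25 (adjusted p = 0.11). Tfeb was at 5.79 ± 0.964 CPM without compound, 6.52 ± 1.64 with XCT790 and 8.04 ± 1.43 with CompA, and passed the test with neither (log2 change 0.17, adjusted p = 0.62, and 0.47, adjusted p = 0.082). With the library run as a block, which the libraries of the KO-labelled groups allow, the CompA value was 0.45 and passed (adjusted p = 0.0045).

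Among the hydrolases, Ctsl (chr13:64359337-64370890) was at 6.92, 7.72, 5.2 and 7.24 CPM without compound and at 15.3, 16.2, 12.1 and 16.8 with CompA. Every CompA library was higher, and Ctsl rose 2.23-fold, by 1.16 ± 0.2 (adjusted p = 0.00019). With XCT790 it was at 9.02, 10.9, 8.76 and 10.6 CPM, again above every library without compound, but the change of 0.54 did not pass (adjusted p = 0.078, and 0.041 with the library run as a block). Gusb moved the other way, from 204.6, 176.6, 180.1 and 216.9 to 134.2, 120.3, 114.2 and 125.8 CPM with CompA, without overlap. It fell by 0.65 ± 0.1 (adjusted p = 7.9e-05), and with XCT790 the change was -0.23 (adjusted p = 0.15, and 0.042 with the block).

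Ctsd (chr7:142375911-142388038) rose with XCT790 from 155.6, 159.8, 142.3 and 152.9 to 201.4, 212.9, 177.6 and 203.4 CPM, without overlap, by 0.38 ± 0.11 (1.3-fold, adjusted p = 0.027). The call was lost without any of 6 libraries, at 0.35 (adjusted p = 0.061) without XCT790 replicate 2. Ctsa rose with CompA by 0.34 (adjusted p = 0.036), a call lost without any of 6 libraries (0.27, adjusted p = 0.14, without CompA replicate 4). The summed myeloid and dendritic markers were at 18.9 to 22.4 CPM without compound, 14.3 to 29.5 with XCT790 and 16.0 to 32.5 with CompA. Most of the single markers had a higher mean with CompA than without compound. Among them were C1qa (1.11 CPM without and 2.04 with CompA), C1qb (1.13 and 1.64), C1qc (0.85 and 1.35) and Vcam1 (2.03 and 3.1). Ly6c2 was lower (3.9 and 2.16), as were Cd14, Marco, Itgam, Xcr1 and Clec9a, each near 0 in both groups. The part of the myeloid and dendritic markers in the rise of Ctsl was not tested.

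CompA also raised 2 V-ATPase genes and 1 membrane gene in KO-labelled cells. Atp6v1a (chr16:44085402-44139705) went from 85.0, 105.2, 104.2 and 107.0 to 134.2, 133.2, 125.7 and 147.1 CPM, without overlap, by 0.43 ± 0.08 (1.35-fold, adjusted p = 0.00061). Atp6v0d1 went from 38.9, 56.6, 39.0 and 44.2 to 68.1, 68.5, 50.9 and 63.5 CPM, by 0.49 ± 0.14 (1.4-fold, adjusted p = 0.013). Lamp2 (chrX:38401357-38456454) went from 86.9, 116.3, 86.9 and 105.1 to 138.5, 137.2, 113.4 and 141.4 CPM, by 0.42 ± 0.12 (adjusted p = 0.015). For Atp6v0d1 and Lamp2 the groups overlapped, though within the library runs each was higher with CompA in 4 of 4. In the unpaired fit both calls were lost without stimulated replicate 1, at 0.42 (adjusted p = 0.056) and 0.36 (adjusted p = 0.057). Of the members with the core E-box in their window, CompA raised 4 of 13 and lowered 0, and of those with a window and no core it raised 6 of 22 and lowered 1. XCT790 raised 1 of 13 with the core and 7 of 22 without it, and lowered 0 of either. Stimulation in KO-labelled cells raised 6 of 13 and lowered 5 with the core, and raised 6 of 22 and lowered 10 without it. Of all genes, CompA raised 10.2% and lowered 9.11%, and XCT790 raised 6.2% and lowered 5.07%. All genes were not split by E-box.

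**Figure D3:**
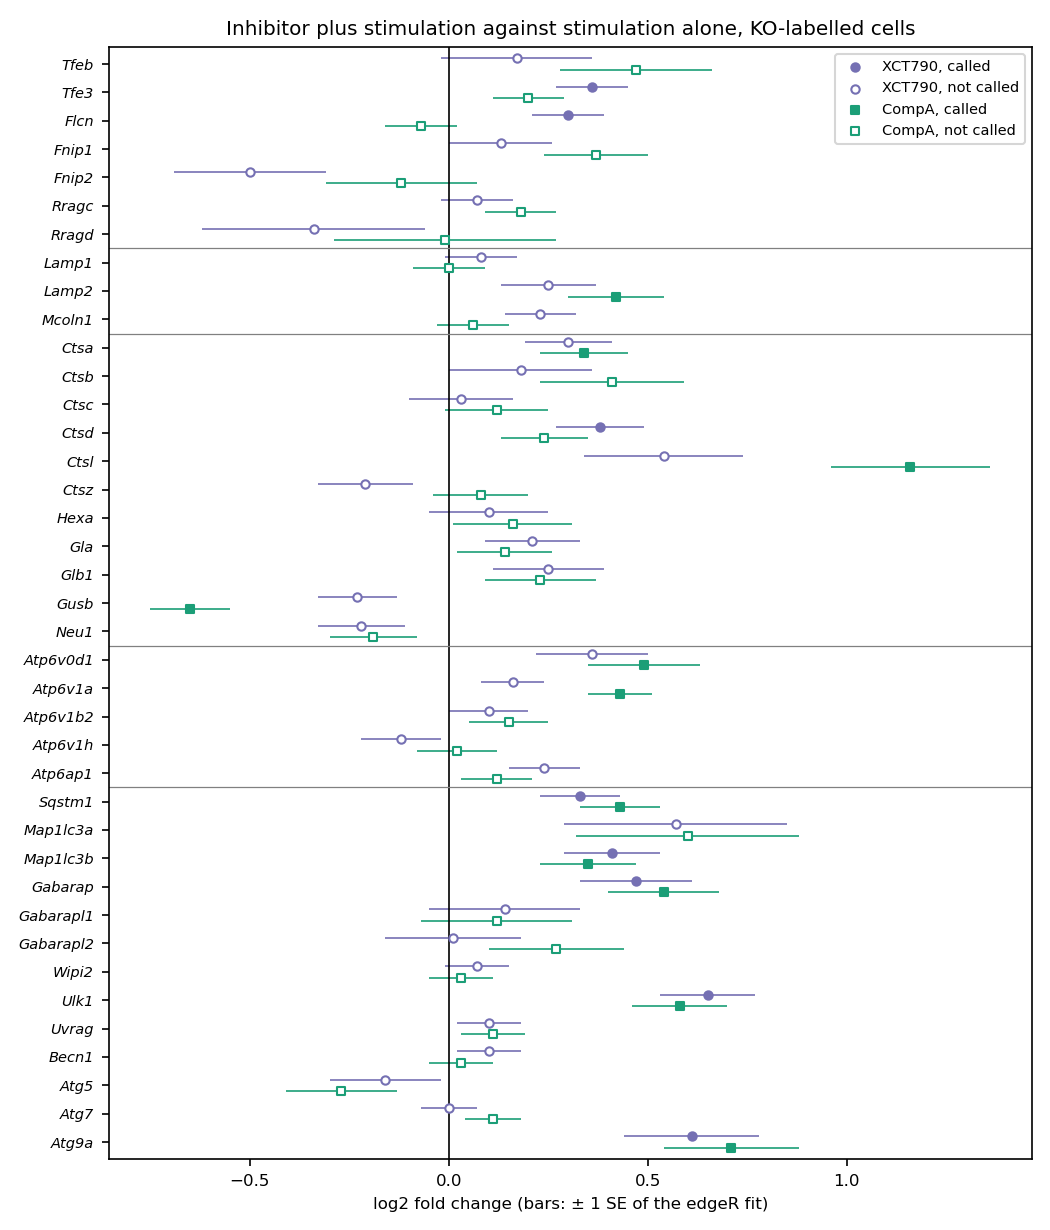
Log2 change against stimulation alone with XCT790 and with CompA in KO-labelled cells for 39 members (lines, by role; Wipi1, near 0 in all of these libraries, is left out), with bars of 1 standard error on each side. Ulk1, Atg9a and Gabarap lie to the right with both compounds, Ctsl lies furthest to the right with CompA at 1.16, and Gusb lies to the left with CompA at -0.65.

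Of the 149 further genes in KO-labelled cells, XCT790 raised 28 and lowered 4, against 6.2% of all genes higher and 5.07% lower. CompA raised 43 and lowered 6, against 10.2% and 9.11%. The medians of the further genes were 0.17 and 0.23, against 0.02 and 0.03 over all genes. With CompA, 16 of the 35 further hydrolases rose and 0 fell, while with XCT790 8 rose and 0 fell. Manba, beta-mannosidase, rose with CompA by 0.95 ± 0.13 (adjusted p = 1.4e-05), from 11.6 to 22.6 CPM, and Lipa, the lysosomal acid lipase, by 0.72. Gm2a and Psap, which present lipids to hydrolases, rose by 0.66 and 0.59. Wdr45, a phosphoinositide-binding autophagy protein of the WIPI family, rose with XCT790 by 0.94 ± 0.15 (adjusted p = 0.00027), from 11.7 to 22.4 CPM, and with CompA by 0.76. Calcoco1, an autophagy receptor, rose by 1.24 ± 0.22 (adjusted p = 0.0007) and by 1.31. Slc38a9, the lysosomal arginine sensor of mTORC1, rose with XCT790 by 0.49, and Mlst8, an mTOR subunit, changed with CompA by -0.65.

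In WT, the comparisons with stimulation alone rest on the 4 libraries that kept part of the unstimulated level of the 72 genes. The subtracted values assume the same share for every gene. As counted, XCT790 raised 5 members and lowered 9, against 28.6% of all genes called (8.4% higher and 20.2% lower), and CompA raised 10 and lowered 8, against 32.8% (11.6% higher and 21.3% lower). With the share subtracted, XCT790 raised 4 and lowered 0, against 3.8% and 3.0% of all genes, and Tfe3 alone of these was also called before. CompA then raised 10 and lowered 1, against 11.0% and 10.7% of all genes, and 5 of these were called before in the same direction. Library totals gave 3 higher and 11 lower with XCT790, against 4.68% and 23.1% of all genes. With CompA they gave 6 higher and 10 lower, against 9.07% and 24.1%. DESeq2 size factors gave 12 higher and 6 lower with CompA, against 1734 and 2511 of 12332 genes.

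Tfeb was at 11.1, 19.0, 14.5 and 9.13 CPM in stimulated WT, at 4.1, 5.04, 3.92 and 4.18 with XCT790 and at 8.46, 7.38, 6.14 and 6.77 with CompA. No library with a compound reached the lowest library without one. It was lower by -1.64 ± 0.19 with XCT790 (adjusted p = 1.2e-07) and by -0.9 ± 0.19 with CompA (adjusted p = 0.00041). With the share subtracted, stimulated WT was at 5.04 ± 2.61 CPM and the changes were -0.25 (adjusted p = 0.63) and 0.48 (adjusted p = 0.16). Tfe3 was at 62.5, 52.0, 57.9 and 52.9 CPM with XCT790, above every stimulated WT library, and rose by 0.42 ± 0.09 (adjusted p = 0.00041), or 0.29 (adjusted p = 0.042) with the share subtracted.

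Ctsb was at 158.3, 197.1, 156.5 and 162.1 CPM with XCT790 and at 200.7, 238.9, 193.3 and 195.3 with CompA. All 8 were below the stimulated WT libraries, and Ctsb was lower by -1.75 ± 0.19 (3.37-fold, adjusted p = 1.7e-08) and by -1.46 ± 0.19 (2.74-fold, adjusted p = 4.1e-07). With the share subtracted, stimulated WT was at 125.4 ± 69.7 CPM and the changes were 0.41 (adjusted p = 0.44) and 0.71 (adjusted p = 0.079). Ctsa, Ctsd and Hexa were lower with both compounds as counted, and each turned positive with the share subtracted (0.33, 0.67 and 0.37 with XCT790). The myeloid markers were at a mean of 971.3 CPM in stimulated WT and at 12.2 and 12.7 with the compounds.

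Lamp2, Atp6v1a and Sqstm1 rose with CompA in both versions. Lamp2 rose from 102.1, 105.5, 96.1 and 87.9 to 124.6, 133.8, 139.1 and 122.8 CPM, by 0.41 ± 0.12 (adjusted p = 0.011; 0.51 subtracted). Atp6v1a rose from 116.6, 98.9, 98.1 and 102.7 to 145.8, 127.4, 142.2 and 142.3 CPM, by 0.42 ± 0.08 (adjusted p = 0.0002; 0.34 subtracted). Sqstm1 rose from 232.6, 268.4, 265.5 and 222.1 to 331.8, 343.4, 318.4 and 336.6 CPM, by 0.43 ± 0.1 (adjusted p = 0.0021; 0.55 subtracted). The groups did not overlap for any of these 3. Ulk1 rose by 0.4 with CompA (adjusted p = 0.011) and by 0.32 with XCT790 (adjusted p = 0.044), both lost without stimulated WT replicate 1 (0.31, adjusted p = 0.066, and 0.24, adjusted p = 0.16). With the share subtracted Ulk1 was at 0.43 (adjusted p = 0.015) and 0.36 (adjusted p = 0.081). Gabarapl1 rose with XCT790 from 28.7, 28.9, 29.0 and 27.3 to 43.3, 43.5, 38.2 and 41.8 CPM, by 0.55 ± 0.19 (adjusted p = 0.031; 0.064 without stimulated replicate 4), or 0.32 (adjusted p = 0.37) with the share subtracted. Called with CompA after subtraction but not as counted were Ctsl (1.85, adjusted p = 1e-04), Gabarap (0.77, adjusted p = 0.00091), Map1lc3b (0.53, adjusted p = 0.0046), Atg9a (0.76, adjusted p = 0.0044), Atp6v0d1 (0.66, adjusted p = 0.0042) and Gabarapl2 (0.53, adjusted p = 0.029).

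The response to the compounds differed between the genotypes, as counted, for 9 members with XCT790 and for 9 with CompA (8 more positive and 1 more negative in KO-labelled cells each), against 24.7% of all genes for XCT790 (17.5% and 7.23%) and 21.6% for CompA (15.6% and 5.99%). Ctsb differed by 1.93 and 1.87, Tfeb by 1.81 and 1.37, and Atg9a by 1.12 and 0.98. With the unstimulated share subtracted from stimulated WT, edgeR called 0 members in either comparison, but it also called only 3 and 0 of all 12314 genes, so this count says nothing particular of the members. Ctsb then differed by -0.23 and -0.29. DESeq2 size factors gave 8 higher and 3 lower with XCT790, against 2004 and 1531 of 12332 genes. With CompA they gave 7 higher and 2 lower, against 1808 and 1288.

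XCT790 and CompA could also be compared with each other at the same dose and time, and this comparison does not use stimulation alone. Because only a code is given for CompA, no difference in structure is stated. With XCT790 relative to CompA, 2 members were higher and 4 lower in WT, against 9.41% of all genes (4.33% higher, 5.08% lower), and 2 were higher and 0 lower in KO-labelled cells, against 3.24% (1.97% higher, 1.27% lower). In KO-labelled cells the counts at an unadjusted p under 0.05 were 2 higher and 3 lower, and DESeq2 called 2 of each. Library totals gave 1 higher and 2 lower there, against 1.73% and 2.18% of all genes. DESeq2 size factors and upper-quartile factors gave 2 higher and 1 lower, against 241 and 185 and against 219 and 194 of 12332 genes.

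Gusb was higher with XCT790 than with CompA in both genotypes. In WT it was at 202.1, 191.4, 200 and 194.8 CPM with XCT790 and at 143.2, 126.9, 141.0 and 139.3 with CompA, and in KO-labelled cells at 185.7, 146.3, 148.2 and 182.9 with XCT790 and at 134.2, 120.3, 114.2 and 125.8 with CompA. The compound groups did not overlap in either genotype, and the differences were 0.52 ± 0.1 (1.43-fold, adjusted p = 0.0013) and 0.42 ± 0.1 (1.34-fold, adjusted p = 0.018). Flcn was at 49.2, 48.9, 53.4 and 50.7 CPM with XCT790 and at 36.5, 43.5, 38.6 and 33.6 with CompA in WT, and at 48.8, 52.9, 47.0 and 47.2 against 38.7, 45.1, 34.4 and 34.0 in KO-labelled cells. These groups did not overlap either, and the differences were 0.41 ± 0.09 (1.33-fold, adjusted p = 0.0024) and 0.37 ± 0.09 (1.29-fold, adjusted p = 0.015). In KO-labelled cells both calls were lost without any of 3 libraries, at 0.31 (adjusted p = 0.085) for Flcn without CompA replicate 4 and at 0.38 (adjusted p = 0.071) for Gusb without CompA replicate 3, where the count of calls was 0.

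Ctsl was lower with XCT790, at 9.31, 9.95, 9.48 and 8.37 CPM against 20.5, 17.8, 20 and 19.1 with CompA in WT. The groups were far apart, and the difference was -1.06 ± 0.19 (2.08-fold, adjusted p = 0.00057). In KO-labelled cells it was -0.62 (adjusted p = 0.076, and 0.03 with the library run as a block). Tfeb was lower with XCT790 in WT by -0.74 ± 0.2 (adjusted p = 0.016), a call lost without CompA replicate 1 (-0.66, adjusted p = 0.06). Ctsz and Atp6v1a were lower in WT by -0.41 (adjusted p = 0.036) and -0.26 (adjusted p = 0.041), and both calls were lost without CompA replicate 4 (-0.38, adjusted p = 0.092, and -0.24, adjusted p = 0.11). The count in WT was 3 without CompA replicate 1 or XCT790 replicate 3. Of the further genes, Manba was lower with XCT790 by -0.83 in WT and -0.62 in KO-labelled cells, and Akt1s1, an inhibitory mTORC1 subunit, was higher by 0.52 and 0.48.

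**Figure D4:**
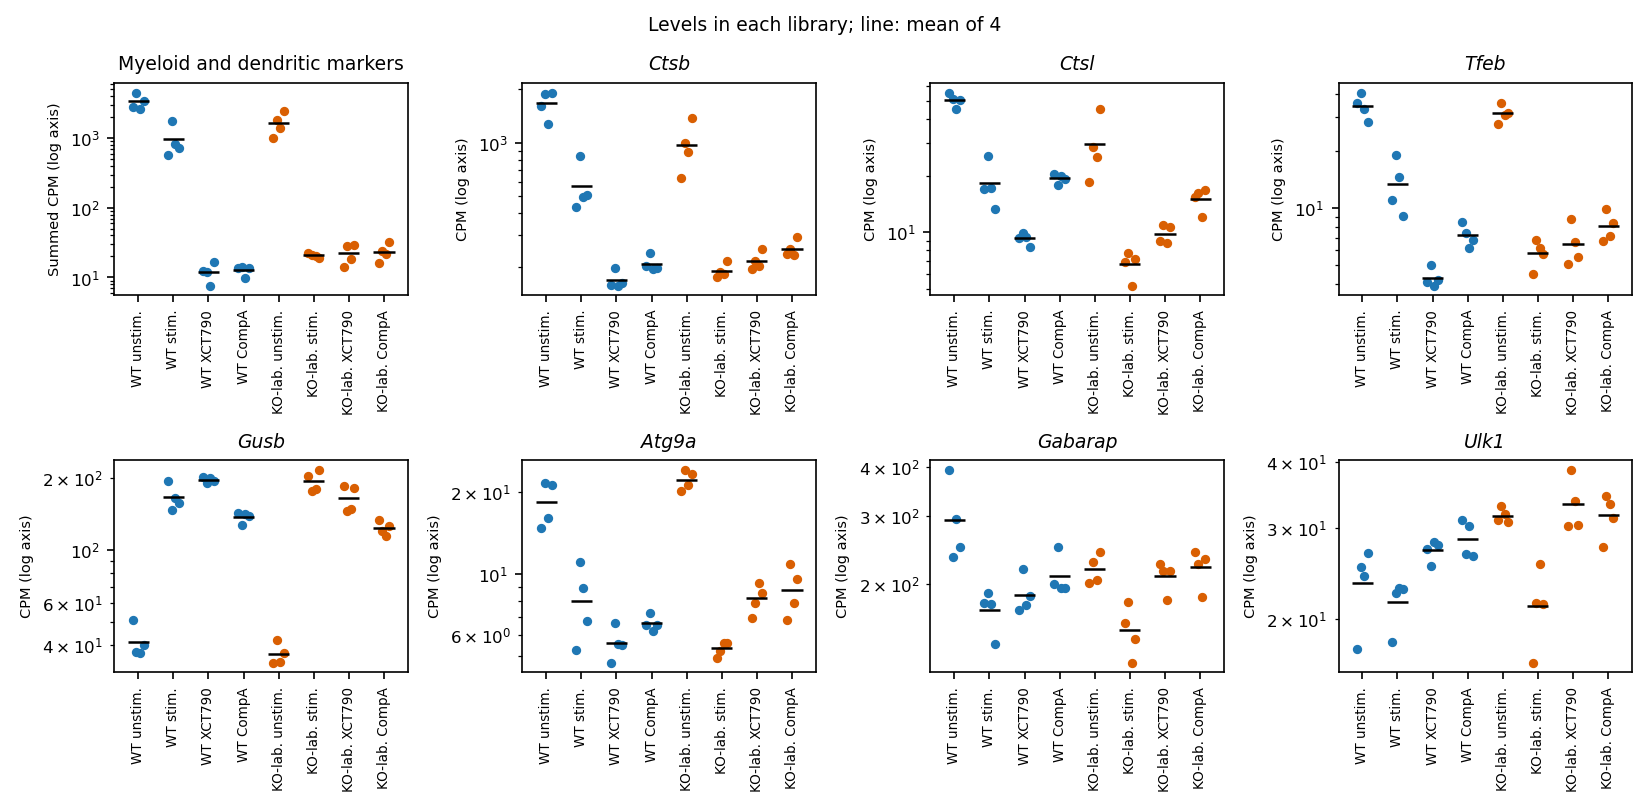
Levels in CPM (log axes) of the summed myeloid and dendritic markers and of Ctsb, Ctsl, Tfeb, Gusb, Atg9a, Gabarap and Ulk1 in the 8 groups, with 1 point per library and a line at the mean. The 4 stimulated WT libraries lie at 565.8 to 1763.6 CPM in the marker panel while the other stimulated groups lie at 7.66 to 32.5, and Ctsb has its highest stimulated values in the same WT libraries, at 433.3 to 841.2 CPM.

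Between the genotypes, the unstimulated cells differed in 25 of the 40 members, 3 higher and 22 lower in KO-labelled cells, against 36.1% of all genes (12.5% higher and 23.6% lower). The median of the 40 was -0.32, against -0.08 over all genes. This balance depends on the scaling: with library totals the median of all genes was 0.13, a shift of 0.21. Of the members, 4 were then higher and 7 lower, against 24.2% and 9.59% of all genes. It also depends on unstimulated WT replicate 1, without which 3 were higher and 12 lower, against 8.03% and 8.51% of all genes. Where only the 2 groups were fitted, 2 were higher and 5 lower, against 1191 and 1103 of 11971 genes. The members called with every 1 library left out numbered 14, 3 higher and 11 lower.

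The 3 higher members were Tfe3, Ulk1 and Wipi2. Tfe3 was at 27.8, 37.5, 31.1 and 33.0 CPM in WT and at 39.6, 38.7, 41.1 and 49.8 in KO-labelled cells. Every KO-labelled library was higher, and the difference was 0.39 ± 0.09 (1.31-fold, adjusted p = 0.0019). Ulk1 was at 17.5, 25.2, 24.2 and 26.8 CPM in WT, below all 4 KO-labelled values of 30.7 to 33.0, with a difference of 0.43 (adjusted p = 0.0077). Wipi2 differed by 0.28 (adjusted p = 0.014). Tfeb was 34.5 ± 5.01 and 31.6 ± 3.19 CPM and did not pass the test.

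Of the lower members, 7 were hydrolases. Ctsb was 1671.4 ± 292.4 CPM in WT and 973.3 ± 309.2 in KO-labelled cells, with overlapping groups and a difference of -0.78 ± 0.18 (1.72-fold, adjusted p = 0.0022). Ctsl, also overlapping, was 50.5 ± 4.12 and 29.4 ± 11.4 CPM (-0.78, adjusted p = 0.0023), and Ctsc, not overlapping, 273.3 and 166.1 CPM (-0.72 ± 0.13, adjusted p = 0.00017). Hexa, Ctsd, Neu1 and Glb1 were lower by -0.72, -0.48, -0.49 and -0.4, and the call of Glb1 was lost without WT replicate 1 (-0.31, adjusted p = 0.13). The summed myeloid and dendritic markers had a mean of 3352.0 CPM in WT and 1658.1 in KO-labelled cells, and their part in these differences was not tested.

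Outside the hydrolases, Lamp2 was at 139.9, 112.6, 106.0 and 113.9 CPM in WT and at 60.7, 89.8, 80.2 and 105.8 in KO-labelled cells. The groups just met without overlap, and the difference was -0.49 ± 0.12 (1.4-fold, adjusted p = 0.0038). Lamp1 (chr8:13159161-13175338) was at 384.1, 348.6, 336.6 and 340.3 against 228.3, 266.9, 258.3 and 302.8 CPM, also without overlap (-0.42, adjusted p = 0.0012). Rragc, Fnip1 and Fnip2 were lower by -0.4, -0.4 and -0.73, the last with overlapping groups (adjusted p = 0.0066). The call of Fnip1 was lost without KO-labelled replicate 4 (-0.35, adjusted p = 0.061).

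All 5 V-ATPase genes were lower, by -0.38 (Atp6v0d1), -0.25 (Atp6v1a), -0.3 (Atp6v1b2), -0.34 (Atp6v1h) and -0.34 (Atp6ap1). Of these, Atp6ap1 alone kept its call without WT replicate 1, the library with the high erythroid marker sum (the level of 1 gene), whose part in these values was not tested. Atp6v0d1 stood at 120.9 CPM in that library and at 76.5 to 89.8 in the other 3, and without it the difference was -0.17 (adjusted p = 0.33). Among the autophagy genes Atg5, at 98.2 CPM in the same library, was lower by -0.54 ± 0.14 (adjusted p = 0.0043) with it and by -0.29 (adjusted p = 0.085) without it. Sqstm1, Gabarap, Gabarapl2 and Becn1 were lower by -0.3, -0.42, -0.46 and -0.21 and lost their calls without it, at -0.18, -0.19, -0.16 and -0.06 (adjusted p = 0.21, 0.26, 0.42 and 0.52). Of members with the core E-box in their window, 9 of 13 were lower and 0 higher, and of those with a window and no core, 9 of 22 were lower and 3 higher. Of all genes, which were not split by E-box, 23.6% were lower and 12.5% higher. In stimulated cells the split gave 4 of 13 lower and 0 higher with the core, and 5 of 22 lower and 3 higher without it. There 17.9% of all genes were lower and 7.31% higher.

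After stimulation, 3 members were higher and 10 lower in KO-labelled cells, against 25.2% of all genes (7.31% higher and 17.9% lower). DESeq2 size factors gave 5 higher and 9 lower, against 1435 and 2043 of 12332 genes. The lower ones were Tfeb, by -1.21 ± 0.19 (2.32-fold, adjusted p = 1.1e-05), Ctsb, by -1.58 ± 0.19 (3.0-fold, adjusted p = 1.3e-07), and Ctsl, Ctsd, Hexa, Ctsa, Ctsc, Glb1, Uvrag and Atg9a, by -0.38 to -1.43. The calls of Atg9a and Glb1 were lost without WT replicate 2 (-0.39, adjusted p = 0.13) and without KO-labelled replicate 2 (-0.26, adjusted p = 0.16). With the unstimulated share subtracted from WT, 2 were called, both higher, against 4.04% of all genes higher and 1.93% lower, Tfeb was at 0.17 (adjusted p = 0.77) and Ctsb at 0.58 (adjusted p = 0.26).

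The 2 members called in both versions were Rragd and Ctsz. Rragd (chr4:32983037-33022180), a Rag GTPase and a TFEB target, was at 3.86, 5.77, 3.99 and 5.46 CPM in stimulated WT and at 5.52, 10.6, 12.3 and 14.1 in KO-labelled cells. The lowest KO-labelled library lay within the WT range, and the difference was 1.16 ± 0.29 (2.23-fold, adjusted p = 0.0036), or 1.47 (adjusted p = 0.004) with the share subtracted. Ctsz was at 135.0 and 178.7 CPM, with a difference of 0.4 (adjusted p = 0.016), or 0.44 (adjusted p = 0.034) with the share subtracted, and lost its call without KO-labelled replicate 4 (0.3, adjusted p = 0.096). Wipi2 was higher by 0.27 (adjusted p = 0.018; 0.061 without WT replicate 3).

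With XCT790, Atg9a alone was called between the genotypes, at 4.74, 6.62, 5.56 and 5.52 CPM in WT and 6.89, 7.87, 9.31 and 8.54 in KO-labelled cells. The groups did not overlap, but the difference of 0.54 ± 0.18 (1.45-fold, adjusted p = 0.048) was lost without any of 6 libraries, at 0.45 (adjusted p = 0.17) without KO-labelled replicate 3. The background was 9.51% of all genes (7.4% higher and 2.11% lower), and the count was 3 without KO-labelled replicate 1 or WT replicate 2. With CompA, edgeR called 0 of the 40, against 7.7% of all genes (5.82% higher and 1.88% lower), while 3 were higher and 2 lower at an unadjusted p under 0.05 and DESeq2 called 1. The count was 1 without KO-labelled CompA replicate 1 or 4 or WT CompA replicate 2.

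**Figure D5:**
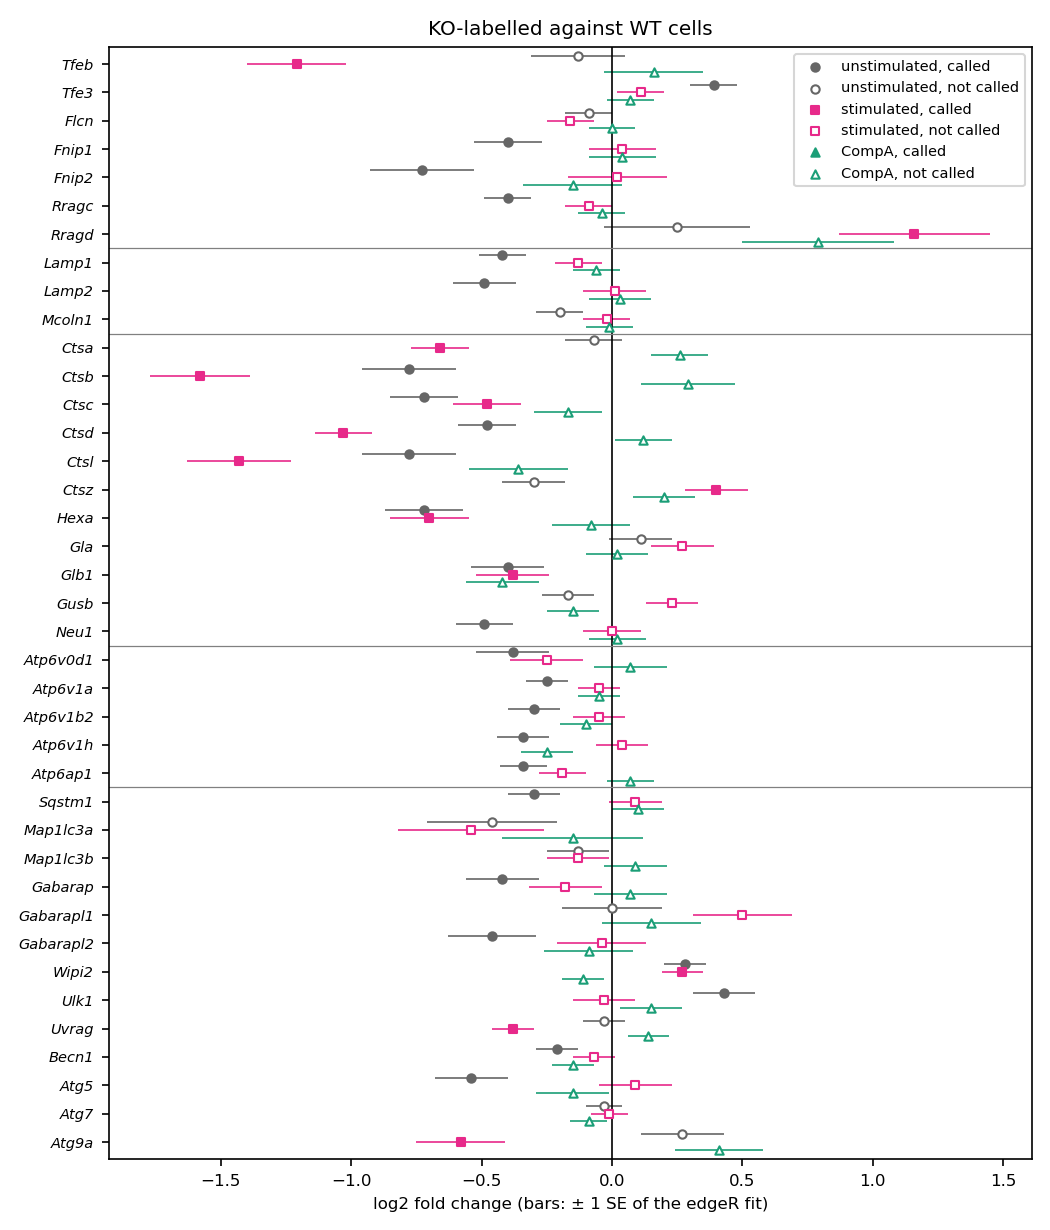
Log2 difference between KO-labelled and WT cells, unstimulated, stimulated without compound and stimulated with CompA, for 39 members (lines, by role), with bars of 1 standard error on each side. Wipi1, near 0, is left out, and the XCT790 condition is not drawn. Ctsb, Tfeb and Ctsl lie to the left in stimulated cells without compound, at -1.58, -1.21 and -1.43, and most members lie near 0 with CompA.

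The further genes of the pathway were compared between the genotypes in the same way. Of the 149, 7 were higher and 58 lower in unstimulated KO-labelled cells, against 12.5% and 23.6% of all genes. With library totals 24 were higher and 18 lower, against 24.2% and 9.59% of all genes. Without WT replicate 1 there were 2 higher and 21 lower, against 8.03% and 8.51% of all genes. The summed myeloid and dendritic markers were at 1658.1 CPM there and 3352.0 in WT, and their part was not tested. Among the lower genes were Npc1, the lysosomal cholesterol exporter, by -0.89 and Pla2g15, a lysosomal phospholipase, by -1.04. In stimulated cells 0 were higher and 57 lower, against 7.31% and 17.9% of all genes, beside marker sums of 20.7 CPM and 971.3 in WT. With the unstimulated share subtracted from WT, 9 were higher and 1 lower, against 4.04% and 1.93% of all genes. Lgmn went from -2.76 to 1.7 (adjusted p = 0.017) with the subtraction. With XCT790 7 were higher and 0 lower (7.4% and 2.11% of all genes), and with CompA 8 were higher and 1 lower (5.82% and 1.88%).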

How the data were processed

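RNA was sequenced from 32 CD4+ T cell libraries prepared with a directional poly(A) kit, per the labels. The deposited files hold raw read counts per gene, made with Trimmomatic 0.36, HISAT2 2.1.0, SAMtools and HTSeq 0.9.1 on mm10, per the submitters' processing notes. The sources used here do not say whether counting used strand, so reads from overlapping genes may be shared. The notes also name DESeq2 1.18.1 and R 3.4.4. The 5 summary lines of each file were left out. Reads in no gene were 5.31 to 13.3% and ambiguous reads 1.1 to 2.32%, and no 2 libraries were identical.

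All 32 libraries entered 1 edgeR 4.0.16 quasi-likelihood fit (R 4.3.3) with a mean per group, TMM scaling and a low-count filter by group. The test was two-sided, p-values were adjusted by Benjamini-Hochberg over 12332 genes, with 0.05 as the threshold for a call. Changes are log2 fold changes with standard errors, and levels are CPM with the SD over 4 libraries. The same steps, tested on simulated counts, recovered 54 to 57% of genes changed by 0.5 on the log2 scale and 91 to 93% of genes changed by 1 (stimulation in KO-labelled cells and XCT790 in each genotype).

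The members and lists were chosen with earlier results of these data known. Per-library values are given for the called member with the largest change in each role and contrast, and for members a result turns on. Of the further genes, at most 2 rises and 2 falls per list and contrast are named, from genes at 10 CPM or more whose groups do not overlap. The lists named were the members, the further genes and markers of myeloid and dendritic, B, CD8 T, natural killer, helper T, erythroid and stromal cells.

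Library numbers in the titles run in sets of 4, with 1 library of each condition of a genotype in each set. Whether a set shares an animal or day is not stated. In KO-labelled libraries the deviations of the same set correlated in every pair of conditions (0.186 to 0.686), so the set was taken to pair them. In WT this held for unstimulated with stimulated (0.368 to 0.559) and XCT790 with CompA (0.17 to 0.492). Alternatives were other scalings, no filter, DESeq2 1.42.0, voom (limma 3.58.1), only the groups compared, the block, libraries left out, and subtraction of the unstimulated share, estimated without pathway genes. For the further genes, subtraction, library totals and leaving out unstimulated WT replicate 1 were added after seeing the data.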

Additional observations from a re-analysis of the deposited data

Results flagged for a closer look

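Within a group of 4, a library was marked where its gap to the nearest other, divided by the range of the group, exceeded Dixon's 95% critical value, which chance gives in about 1 of 20 groups, and 23 of 320 groups of the members were marked. WT CompA replicate 2 was high for Ctsa (62.7 CPM), Ctsb (238.9), Ctsd (182.3), Map1lc3b (77.1), Gabarap (248.3) and Wipi1 (0.183). WT XCT790 replicate 2 was high for Ctsb (197.1 CPM) and Hexa (49.1), and WT XCT790 replicate 3 stood apart for Fnip1 (49.1) and Atg7 (30.3). Unstimulated WT replicate 1 stood apart for Neu1 (89.8 CPM) and Atp6ap1 (195.9). Stimulated WT replicate 4 was low for Mcoln1 (10.9 CPM) and Gabarapl1 (27.3), and replicate 1 for Ulk1 (18.1). In KO-labelled cells, CompA replicate 3 was low for Lamp2 (113.4 CPM) and Atp6ap1 (100.5), and Ctsz stood apart in replicate 4 with CompA (231.9) and with XCT790 (185.2). Atp6v1b2 was low with XCT790 in replicate 3 (164.0 CPM), and Atp6v1a in stimulated replicate 1 (85.0). Wipi1 stood apart in stimulated replicate 4 (0.131 CPM) and Map1lc3b in unstimulated replicate 4 (98.3).

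Responses that differed between the genotypes by the interaction test (KO-labelled minus WT, log2) were marked too. For stimulation these were Tfeb (-1.09), Fnip2 (0.75), Lamp2 (0.5), Ctsa (-0.59), Ctsb (-0.8), Ctsd (-0.55), Ctsz (0.7), Gusb (0.4), Neu1 (0.49), Atp6v1h (0.39), Sqstm1 (0.39), Ulk1 (-0.46), Uvrag (-0.35), Atg5 (0.63) and Atg9a (-0.84). For XCT790 they were Tfeb (1.81), Ctsa (0.96), Ctsb (1.93), Ctsd (1.2), Ctsl (1.51), Hexa (0.71), Gusb (-0.48), Uvrag (0.42) and Atg9a (1.12). For CompA they were Tfeb (1.37), Ctsa (0.92), Ctsb (1.87), Ctsd (1.16), Ctsl (1.07), Hexa (0.61), Wipi2 (-0.38), Uvrag (0.52) and Atg9a (0.98). All 3 comparisons use the stimulated WT libraries.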

How the results depend on the processing

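Of the values of single members under the alternatives, 449 lost a call, 238 gained one and 47 turned sign with a call in either fit. The other 10521 kept their side of the threshold and, where called, their direction. Values called in neither fit are among these, whatever their sign. Upper-quartile factors turned Flcn (-0.22), Atp6v1a (-0.02) and Becn1 (-0.18) for stimulation in WT and Lamp1 (-0.26) and Becn1 (-0.07) in KO-labelled cells. Library totals turned Lamp1 (-0.33), Neu1 (-0.04), Sqstm1 (-0.26) and Becn1 (-0.14) for stimulation in KO-labelled cells, and Becn1 between unstimulated genotypes (0.01). Subtraction of the unstimulated share from stimulated WT turned, with XCT790 in WT, Ctsa (0.33), Ctsb (0.41), Ctsd (0.67), Ctsl (0.79), Hexa (0.37) and Atg9a (0.53). With CompA in WT it turned Tfeb (0.48), Ctsa (0.41), Ctsb (0.71), Ctsd (0.58), Hexa (0.52) and Atg9a (0.76). Between stimulated genotypes it turned Tfeb (0.17), Ctsa (0.33), Ctsb (0.58), Ctsd (0.46), Ctsl (0.33), Hexa (0.28) and Atg9a (0.45). In the genotype difference of stimulation it turned Tfeb (0.3), Ctsa (0.4), Ctsb (1.36), Ctsd (0.93), Gusb (-0.0) and Atg9a (0.18). In that of XCT790 it turned Ctsa (-0.04), Ctsb (-0.23), Ctsd (-0.29), Ctsl (-0.25) and Hexa (-0.27), and in that of CompA Tfeb (-0.01), Ctsa (-0.07), Ctsb (-0.29), Ctsd (-0.33), Ctsl (-0.69), Hexa (-0.36) and Atg9a (-0.04). The cause of the other turns was not tested.

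The counts over all genes also changed under each alternative, so a moved count is not by itself a result about the members. Counts of members called that moved by over 1.5 times were these. Subtraction gave 4 for XCT790 in WT (14 as reported), 11 for CompA in WT (18), 2 between stimulated genotypes (13), 8 for the genotype difference of stimulation (15) and 0 for those of XCT790 and CompA (9 each). Fitting only the groups compared gave 0 for XCT790 and 7 for CompA in KO-labelled cells (8 and 11), 15 and 0 for XCT790 against CompA in WT and KO-labelled cells (6 and 2), 7 between unstimulated genotypes (25), 3 between genotypes with XCT790 (1) and 5 for the difference of stimulation. Library totals gave 11 between unstimulated genotypes, 3 between genotypes with XCT790, 9 for the difference of stimulation and 14 for that of XCT790. DESeq2 gave 4 for XCT790 against CompA in KO-labelled cells and 3 and 1 between genotypes with XCT790 and CompA. Between genotypes with XCT790 its size factors, voom, no filter and KO-labelled replicate 2 left out gave 0 and upper-quartile factors 2. Size factors gave 1 with CompA, and leaving out KO-labelled replicate 2 gave 9 for the difference of stimulation. With the replicate block, the paired fit gave 13 for XCT790 in KO-labelled cells (11 higher, 2 lower), 4 for XCT790 against CompA there, 0 and 1 between genotypes with XCT790 and CompA, and 14 for the genotype difference of XCT790. In KO-labelled cells the block added Fnip2 (-0.51, adjusted p = 0.012), Ctsa (0.27, adjusted p = 0.021), Ctsl (0.52, adjusted p = 0.041), Gusb (-0.26, adjusted p = 0.042) and Atp6v0d1 (0.34, adjusted p = 0.021) with XCT790.

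Leaving out 1 library gave 3 to 11 calls for XCT790 and 7 to 11 for CompA in KO-labelled cells, 3 to 6 and 0 to 2 for XCT790 against CompA in WT and KO-labelled cells, 15 to 25 between unstimulated genotypes, 0 to 3 and 0 to 1 between genotypes with XCT790 and CompA, and 9 to 20 for the genotype difference of stimulation. Depth limits Wipi1, Mitf and Tfec, which were near 0 in stimulated groups.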
